A study of Bos taurus with 12 samples.

Results

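The genes described here encode the subunits and assembly factors of the mitochondrial respiratory chain, the ATP synthase and the SLC25 carriers. They were measured in bovine chromaffin cells. Most of the carriers lie in the inner mitochondrial membrane, but SLC25A17 is a carrier of the peroxisome. A gene was included by its symbol alone: symbols that begin with NDUF (complex I), UQCR (complex III), SDH followed by A, B, C or D (complex II), COX4 to COX8 (complex IV), ATP5 (ATP synthase) or SLC25A (carriers), and CYC1 (CYCS was not analysed here). Each gene was read from its brightest probe set, the set of array probes with the highest mean over all arrays. This gave 116 of the 9155 genes that carry a symbol on the array, 89 of the chain and the ATP synthase and 27 carriers, and 33 of the 116 had more than 1 probe set.

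Complexes I and II pass electrons from NADH and succinate to ubiquinone, complex III passes them on to cytochrome c, and complex IV passes them to oxygen, while the ATP synthase uses the proton gradient that builds up to make ATP. Most SLC25 carriers move nucleotides, phosphate, amino acids, metal ions and metabolic intermediates across the inner membrane. Chromaffin cells of the adrenal medulla, which store and secrete adrenaline and noradrenaline, draw on this ATP to load granules and to release them.

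The cells were cultured from bovine adrenal glands, and their RNA was hybridised to 12 single-colour Affymetrix arrays, 3 for each of 4 groups. The groups were cells treated with interleukin-6 (IL6, 10 nM, 24 h), cells treated with human interferon alpha (IFNα, 1 nM, 24 h), cells treated with histamine (10 µM, 6 h) and untreated cells. The question was how each agent changes the transcripts of these cells. The submitters describe the triplicates as technical, so p-values measure only the spread between these arrays, and no source used here states how long untreated cells were kept. Histamine acted for 6 h and the cytokines for 24 h, so histamine was not compared with them.

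Values are log2 expression levels, on which a difference of 1 is a 2-fold change. The mean of every array was 6.79, its lower quartile lay between 5.02 and 5.11, and arrays of the same group correlated at 0.993 to 0.998 over probe sets. The chromaffin markers TH and CHGA averaged 13.45 and 13.62 in untreated cells, near the top of the arrays (14.01 to 14.14). Some markers of chromaffin and other adrenal cells moved with the treatments, counted at the threshold of limma's adjusted p defined below. Of genes with a symbol, 21.3% passed it in either direction after IL6, 22.1% after IFNα and 40.9% after histamine. The endothelial, leukocyte and Schwann counts after histamine are near or below that share. Of 10 chromaffin markers, 2 were higher and 4 lower after IL6, 2 were higher after IFNα, and 6 were higher and 1 lower after histamine, with summed linear levels of 64760 to 68770, 67860 to 73150 and 79150 to 81650, against 67080 to 69050 in untreated arrays. Of 10 adrenal cortex markers, 6 were lower after IL6 and 6 after IFNα, and 7 were higher after histamine. Their summed linear level was 1598 to 1648 in IL6 arrays, 1496 to 1539 in IFNα arrays and 2834 to 2899 in histamine arrays, against 1983 to 2065 in untreated arrays. Of 9 fibroblast and mural markers, 8 were higher after histamine (summed level 11100 to 11200, against 9729 to 10190 in untreated arrays), 4 were lower after IFNα (8658 to 9598), and 1 was higher and 3 were lower after IL6 (9844 to 10330). Of 7 endothelial markers 3 were lower after each cytokine, and after histamine 1 was higher and 2 were lower. Of 8 leukocyte markers, 2 were higher and 2 lower after IL6, with summed levels of 1180 to 1360 in IL6 arrays against 692 to 732 in untreated arrays. After IFNα 3 leukocyte markers were lower, and after histamine 2 were higher and 1 was lower. Of 3 Schwann markers 1 was higher after IL6 (summed level 1349 to 1372), 1 was lower after IFNα (814 to 843) and 1 was higher after histamine (1188 to 1213), against 1096 to 1137 in untreated arrays. In these bulk samples fewer cells of a type and less RNA per cell cannot be told apart, and the part of other cells in the results below was not tested.

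Most of these genes moved little, as did most genes with a symbol, and a few moved strongly. A member is called changed where limma's adjusted p was under 0.05, with Benjamini-Hochberg adjustment over all 24016 probe sets tested. A second count also asks for a fold of at least 1.5. In limma's moderated F test across the 4 groups, 78 of 116 members passed, against 49.1% of all probe sets. The share of genes with a symbol, the closer background, was not counted for this test. In each comparison below it exceeded the share of all probe sets.

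After IL6, 3 members were higher and 9 lower, 10.3% of the 116, against 17.4% of all probe sets (6.68% higher, 10.7% lower) and 21.3% of genes with a symbol. No member reached a fold of 1.5 in limma at this adjusted p, against 2.39% of all probe sets, and 34 had an unadjusted p under 0.05. Without IL6 array 1 NDUFA4L2 reached both (1.05, adjusted p = 0.0197), and without IL6 array 2 or 3 SLC25A34 did (-0.63 and -0.60). The count at the adjusted p was 35 with array weights and 5 without the intensity trend. The median log2 change of the members was -0.035, against 0.003 over all probe sets, and 96.6% of members stayed within a fold of 1.2, against 83.8% of genes with a symbol. The 3 to 9 split depended on the scaling of the arrays: it was 8 to 9 with cyclic loess, 5 to 5 with median centring and 4 to 16 with quantile normalization.

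After IFNα, 11 members were higher and 25 lower, 31.0% of the 116, against 16.7% of all probe sets (6.74% higher, 9.99% lower) and 22.1% of genes with a symbol. COX7A1, SLC25A28 and SLC25A16 also reached a fold of 1.5, all higher, against 3.36% of all probe sets. The median was -0.05, against -0.02 over all probe sets. Within a fold of 1.2 stayed 85.3% of members, close to the 83.1% of genes with a symbol. With cyclic loess the split was 16 higher to 16 lower, so the excess of falls depended on the scaling. COX7A1, SLC25A28, SLC25A16, ATP5IF1, NDUFB10, UQCRB and ATP5F1D stayed past the threshold with loess, quantile normalization and median centring.

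After histamine, 26 members were higher and 22 lower, 41.4% of the 116, against 31.6% of all probe sets (15.1% higher, 16.4% lower) and 40.9% of genes with a symbol, a share close to that of the members. NDUFAF5, which was higher, and SLC25A34, which was lower, also reached a fold of 1.5, against 5.7% of all probe sets. The median was 0.017, against -0.002 over all probe sets, and 79.3% of members stayed within a fold of 1.2, against 69.2% of genes with a symbol. The split was 20 to 29 with quantile normalization. The comparisons with untreated cells share the same 3 untreated arrays, so values of a member in them are given side by side and their likeness is not read as a result.

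**Figure D1:**
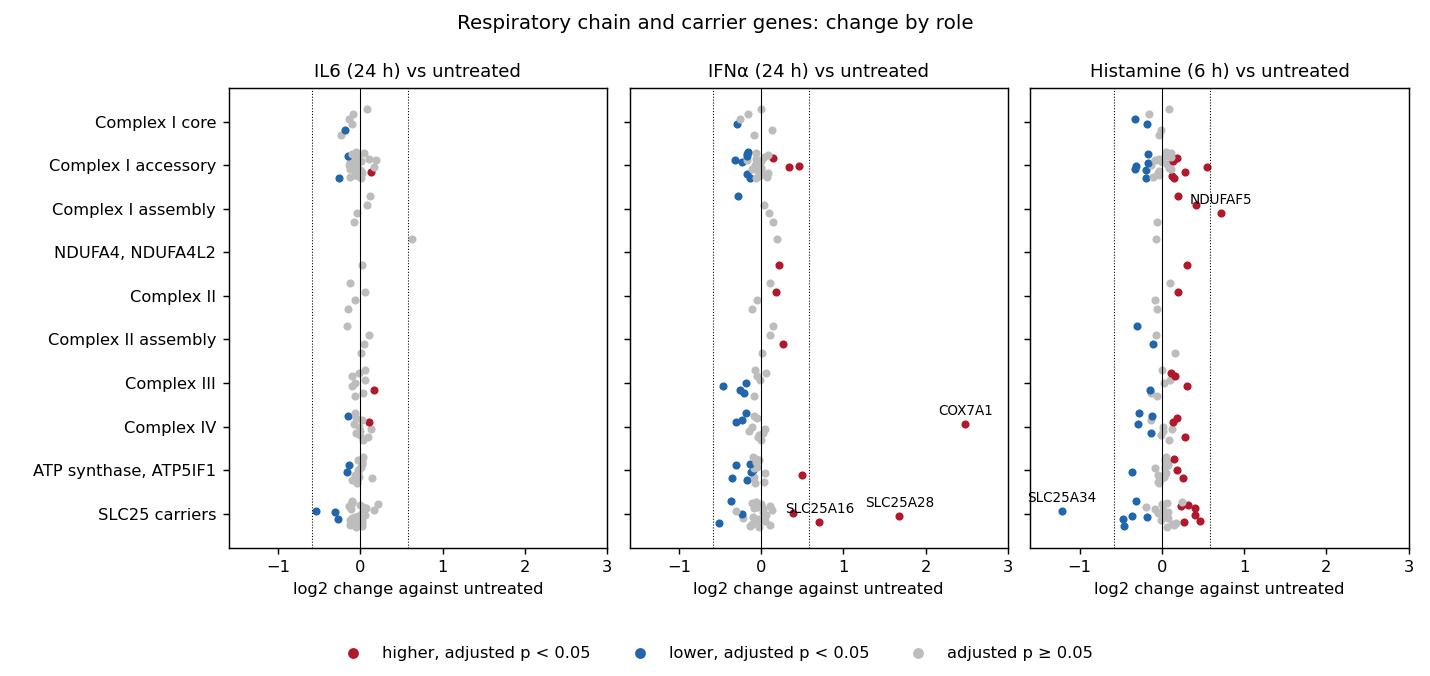
Log2 change of each of the 116 members against untreated cells (horizontal axis) by role (vertical axis), with a panel for IL6, IFNα and histamine. Each point is a gene, red or blue where it was higher or lower at an adjusted p under 0.05, and dotted lines mark a fold of 1.5. Named points reached that fold: COX7A1, SLC25A28 and SLC25A16 after IFNα, and NDUFAF5 and SLC25A34 after histamine.

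Complex I is the entry point of electrons from NADH, and 36 of its subunits were measured, 6 core and 30 accessory. After IL6 1 was higher and 3 were lower, after IFNα 3 were higher and 8 lower, and after histamine 6 were higher and 8 lower. These are 11.1%, 30.6% and 38.9% of the 36, against 21.3%, 22.1% and 40.9% of genes with a symbol, and the last is near that background. Loess gave 4 and 3 for IL6 and 6 and 5 for IFNα, and quantile normalization gave 4 and 11 for histamine. NDUFB10, an accessory subunit of the membrane arm, went in opposite directions after IFNα and histamine. It read 11.78, 11.79 and 11.79 in IFNα arrays, and 10.93, 11.05 and 11.05 in histamine arrays, against 11.28, 11.33 and 11.36 in untreated arrays. The IFNα arrays lay above, and the histamine arrays below, every untreated array. The IFNα change was 0.46 (95% interval 0.38 to 0.55, limma, adjusted p = 6.2e-07) and the histamine change -0.31 (-0.40 to -0.23, adjusted p = 2.37e-05). After IL6 it had a change of -0.04.

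NDUFB1, another membrane arm subunit, was above untreated cells after IFNα and after histamine. It read 9.26, 9.35 and 9.19 in IFNα arrays and 9.37, 9.43 and 9.62 in histamine arrays, against 8.90, 8.94 and 8.94 in untreated arrays, with no overlap. These are changes of 0.34 and 0.55 (limma, adjusted p = 0.00179 and 1.52e-05). A dim second probe set of NDUFB1 had changes of 0.11 and 0.00. NDUFB6 fell by 0.32 after IFNα (adjusted p = 0.000167), reading 10.63, 10.63 and 10.54 in IFNα arrays against 10.87, 10.93 and 10.96 in untreated arrays. NDUFA8 fell by 0.33 after histamine (adjusted p = 3.15e-05). NDUFA1, a small accessory subunit, was lower in all 3 comparisons, which share the untreated arrays. It read 11.81, 11.83 and 11.81 in IL6 arrays, 11.95, 11.98 and 11.89 in IFNα arrays and 11.87, 11.90 and 11.88 in histamine arrays, against 12.06, 12.10 and 12.06 in untreated arrays. Its changes were -0.26, -0.13 and -0.19 (adjusted p = 3.58e-05, 0.006 and 0.000192), and the IFNα change was -0.07 with loess, past no threshold (adjusted p = 0.124).

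Core subunits of complex I, which hold the flavin and iron-sulfur centres, had small changes, and those that passed were lower. NDUFS7 fell by 0.29 after IFNα (adjusted p = 0.00215), and the falls of NDUFS8 and NDUFS7 after histamine, by 0.33 and 0.18, were each lost when single arrays were left out. For NDUFS8 these were histamine array 1 or untreated array 2 (-0.30 and -0.27, adjusted p up to 0.0608), and for NDUFS7 histamine arrays 1 and 2 and untreated arrays 2 and 3 (-0.19 to -0.15, adjusted p up to 0.115). After IL6 the core subunit NDUFS3 fell by 0.19 and the accessory subunit NDUFA5 rose by 0.13 (adjusted p = 0.0251 and 0.0245), and both calls also rested on single arrays. Without IL6 array 2 or 3 or untreated array 2 or 3 NDUFS3 had -0.18 to -0.16 (adjusted p 0.0759 to 0.0978), and without IL6 array 1 or 2 or untreated array 1 or 3 NDUFA5 had 0.11 to 0.14 (adjusted p 0.063 to 0.109). NDUFA5 rose by 0.28 after histamine (adjusted p = 4.09e-05), and its second probe set rose by 0.27 (adjusted p = 0.00387).

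Assembly factors build complex I without remaining in it. The set of 4 measured is small, and 3 of them (75.0%) were higher after histamine, under every scaling tried. The other, NDUFAF3, had -0.06 after histamine on its brightest probe set (mean 9.23), which did not pass. Its second (mean 8.77) was lower after histamine (-0.25, limma, adjusted p = 0.0242) and after IL6 (-0.30, adjusted p = 0.019). After histamine 40.9% of genes with a symbol passed in either direction. NDUFAF5, which hydroxylates the core subunit NDUFS7 during assembly, had the largest rise of any member there. It read 7.81, 7.78 and 7.93 in histamine arrays, against 6.99, 7.12 and 7.25 in untreated arrays. Every histamine array lay above every untreated array, and the change was 0.72 (95% interval 0.56 to 0.88, fold 1.65, limma, adjusted p = 3.52e-06). Its second, dimmer probe set read 6.46, 6.37 and 6.64 in histamine arrays, against 5.09, 5.23 and 5.34 in untreated arrays, a change of 1.27 (adjusted p = 1.55e-07). In IL6 and IFNα arrays NDUFAF5 had changes of -0.04 and 0.09, neither past the threshold. NDUFAF6 read 6.62, 6.79 and 6.70 in histamine arrays, against 6.34, 6.20 and 6.34 in untreated arrays, and rose by 0.41 (adjusted p = 0.000855). NDUFAF8, which works with NDUFAF5, rose by 0.20 after histamine, a call lost without histamine array 2 or 3 or untreated array 1 (0.14 to 0.20, adjusted p 0.0527 to 0.0936). After IFNα it fell by 0.28 (adjusted p = 0.00456), reading 8.79, 8.84 and 8.87 in IFNα arrays against 9.04, 9.15 and 9.15 in untreated arrays.

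Complex II, the succinate dehydrogenase, changed in SDHC, a membrane anchor of the enzyme, while SDHA, SDHB and SDHD did not pass against untreated cells. SDHC read 10.77, 10.76 and 10.78 in IFNα arrays and 10.78, 10.78 and 10.81 in histamine arrays, against 10.56, 10.62 and 10.60 in untreated arrays. Both groups lay above every untreated array, by 0.18 and 0.20 (limma, adjusted p = 0.00179 and 0.000382). SDHB, the iron-sulfur subunit, had changes of -0.06, -0.05 and -0.08 after IL6, IFNα and histamine, with 95% intervals of -0.17 to 0.05, -0.16 to 0.06 and -0.19 to 0.03. Of its assembly factors, SDHAF2, which adds the flavin to SDHA, rose by 0.26 after IFNα (adjusted p = 9.21e-05) and SDHAF4 fell by 0.30 after histamine (adjusted p = 0.00167). SDHAF2 read 10.55, 10.61 and 10.62 in IFNα arrays, against 10.32, 10.33 and 10.34 in untreated arrays. SDHC, SDHAF2 and SDHAF4, like the other members outside the largest changes of each comparison, were picked for mention after their values were seen.

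Complex III hands electrons to cytochrome c. Of its 9 measured subunits 1 was higher after IL6, 4 were lower after IFNα, and 3 were higher and 1 lower after histamine, or 11.1%, 44.4% and 44.4%, against 21.3%, 22.1% and 40.9% of genes with a symbol. Loess gave 1 higher and 2 lower for IFNα, and quantile normalization gave 1 and 1 for IL6 and 2 and 2 for histamine. UQCRB, the ubiquinone-binding subunit, went in opposite directions after IFNα and histamine. It read 9.75, 9.77 and 9.73 in IFNα arrays and 10.41, 10.49 and 10.66 in histamine arrays, against 10.14, 10.25 and 10.25 in untreated arrays. The IFNα arrays lay below, and the histamine arrays above, every untreated array. The changes were -0.46 (-0.59 to -0.34, adjusted p = 4.93e-05) and 0.31 (0.18 to 0.43, adjusted p = 0.000964). A dimmer second probe set of UQCRB had -0.33 and 0.13, neither past the threshold (limma, adjusted p = 0.187 and 0.616). UQCR11, the smallest subunit, read 11.81, 11.85 and 11.80 in IL6 arrays, 11.37, 11.40 and 11.40 in IFNα arrays and 11.44, 11.54 and 11.55 in histamine arrays, against 11.59, 11.69 and 11.67 in untreated arrays. It was above untreated cells after IL6 (0.17, adjusted p = 0.00628, and 0.16 on IL6 array 1 alone, without the 3 arrays with raised hypoxia genes) and below them after IFNα (-0.26, adjusted p = 0.000163). The histamine change of -0.14 was lost without histamine array 1 or untreated array 2 (-0.12 and -0.11, adjusted p 0.0508 and 0.057). UQCRFS1, the Rieske iron-sulfur protein, rose by 0.16 after histamine (adjusted p = 0.0045). CYC1, the cytochrome c1 subunit, had changes of -0.07, -0.09 and -0.06, with 95% intervals that lay between -0.18 and 0.03.

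Complex IV, the cytochrome c oxidase, held the largest change of all members. COX7A1 encodes the form of subunit 7A known from heart and skeletal muscle. It read 11.61, 11.63 and 11.49 in IFNα arrays, against 9.08, 9.09 and 9.11 in untreated arrays. Every IFNα array lay more than 2 log2 units above every untreated array, and the change was 2.48 (95% interval 2.31 to 2.66, fold 5.59, limma, adjusted p = 7.7e-12). In IL6 arrays it read 8.78, 9.10 and 9.16, a change of -0.08 that did not pass, with array 1 below every untreated array and array 3 above them. Without the 3 arrays with raised hypoxia genes, COX7A1 had -0.31 on IL6 array 1 alone, a value with no spread of its own. In histamine arrays it read 8.71, 8.86 and 8.84, a change of -0.29 (adjusted p = 0.013), lost without histamine array 1 (-0.24, adjusted p = 0.063).

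COX7A2, which encodes the widely expressed form of the same subunit, fell where COX7A1 rose. It read 11.98, 12 and 11.94 in IFNα arrays, against 12.27, 12.27 and 12.29 in untreated arrays, a change of -0.30 (95% interval -0.37 to -0.24, adjusted p = 4.67e-06). The groups did not overlap. In histamine arrays it read 12.40, 12.42 and 12.42 (change 0.14, adjusted p = 0.00305), and with quantile normalization this change did not pass (0.07, adjusted p = 0.158). In IL6 arrays it read 12.44, 12.34 and 12.35 (0.10, adjusted p = 0.0371), a call lost without IL6 array 1, histamine array 2 or any untreated array (0.07 to 0.11, adjusted p 0.0539 to 0.112). COX7A2L, a related protein that joins complexes III and IV, fell by 0.23 after IFNα (adjusted p = 0.00363). Over the 13 complex IV subunits, 1 was higher and 1 lower after IL6, 1 was higher and 3 lower after IFNα, and 3 were higher and 4 lower after histamine, or 15.4%, 30.8% and 53.8%, against 21.3%, 22.1% and 40.9% of genes with a symbol. Quantile normalization gave none higher and 1 lower after IL6, loess gave 1 higher and 2 lower after IFNα, and median centring gave 4 higher and 2 lower after histamine. COX5A rose by 0.28 after histamine (adjusted p = 0.000135). COX4I1, the main form of subunit 4, had changes of 0.03, -0.01 and 0.08, and its widest 95% interval ended at 0.15. COX6A1 fell by 0.14 after histamine (adjusted p = 0.0151), which was lost without histamine array 1 or untreated array 2 or 3 (-0.13 to -0.11, adjusted p 0.051 to 0.0801). COX6A2, the muscle form of that subunit, read 4.96 to 5.25 over the 12 arrays, near their lower quartile, and did not pass.

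**Figure D2:**
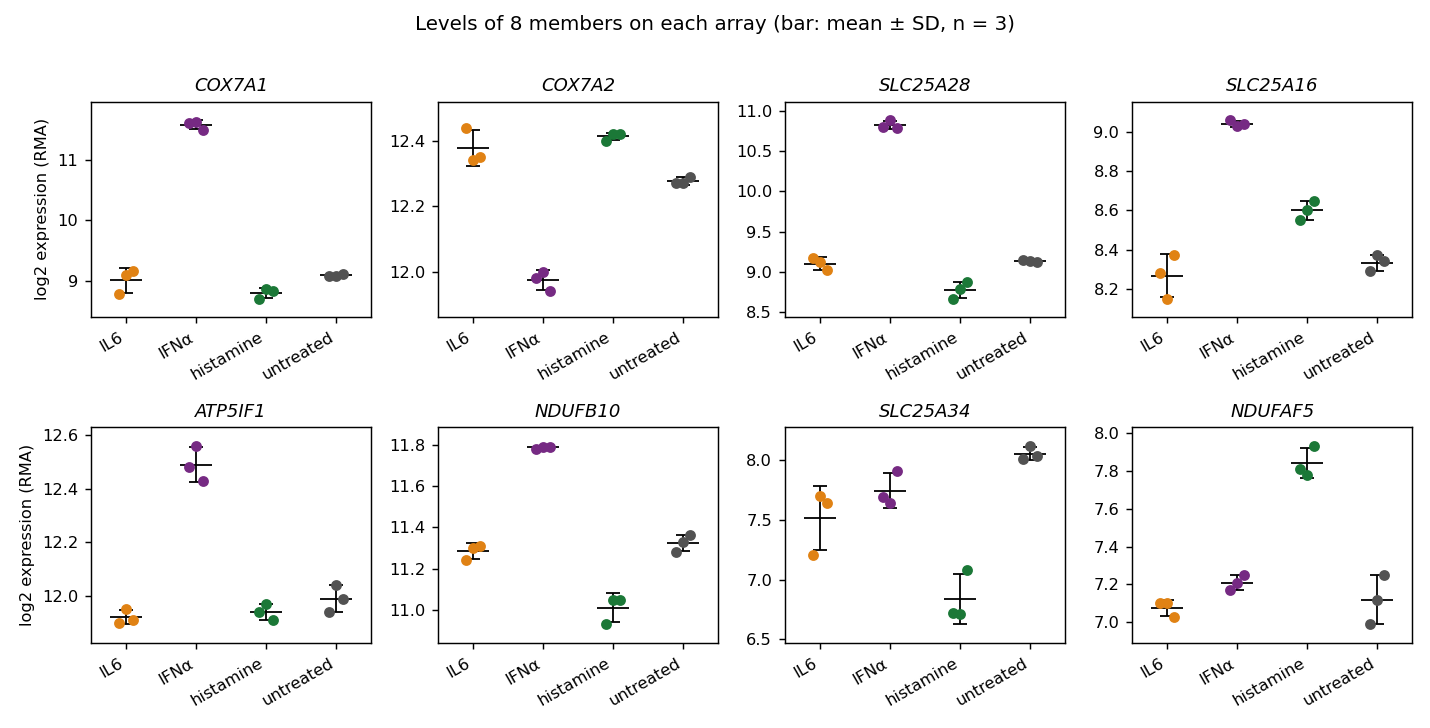
Log2 expression (vertical axis) of 8 members on each of the 12 arrays, by group (horizontal axis: IL6, IFNα, histamine, untreated). Points are arrays and bars the mean ± SD (n = 3), and each panel has its own scale. COX7A1, SLC25A28, SLC25A16, ATP5IF1 and NDUFB10 were highest in IFNα arrays, COX7A2 was lowest there, SLC25A34 was lowest and NDUFAF5 highest in histamine arrays.

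The ATP synthase set had 17 genes, including ATP5IF1, the protein that stops the enzyme from hydrolysing ATP when the proton gradient falls. ATP5IF1 read 12.48, 12.56 and 12.43 in IFNα arrays, against 11.94, 12.04 and 11.99 in untreated arrays. Its IFNα arrays lay above all others, with a change of 0.50 (95% interval 0.42 to 0.58, adjusted p = 1.42e-07), while after IL6 and histamine it had changes of -0.07 and -0.05. The other members past the threshold after IFNα, 6 in all, were lower, or 3 with loess. ATP5F1D, a subunit of the central stalk, read 9.67, 9.72 and 9.61 in IFNα arrays and 10.21, 10.35 and 10.30 in histamine arrays, against 10.00, 9.99 and 10.09 in untreated arrays. It was below untreated cells after IFNα (-0.36, adjusted p = 0.000128) and above them after histamine (0.26, adjusted p = 0.00108), and a dim second probe set had -0.05 in both. ATP5MG, subunit g, fell by 0.30 after IFNα (adjusted p = 2.04e-05), but its second probe set, close in brightness, had a change of -0.02.

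ATP5MC1, ATP5MC2 and ATP5MC3 encode the same mature subunit c, which forms the rotating ring. ATP5MC2 was lower in all 3 comparisons, which share the untreated arrays. It read 12.23, 12.22 and 12.24 in IL6 arrays, 12.26, 12.30 and 12.25 in IFNα arrays and 12, 12.07 and 12.04 in histamine arrays, against 12.39, 12.41 and 12.39 in untreated arrays. The changes were -0.17, -0.13 and -0.36 (adjusted p = 0.000721, 0.00454 and 2.35e-07), and that after IFNα was -0.06 with loess and did not pass (adjusted p = 0.166). ATP5MC3 rose by 0.19 after histamine (adjusted p = 0.000185), but by 0.10 with quantile normalization, which did not pass (adjusted p = 0.05). ATP5MC1 passed in no comparison, with changes of -0.03, 0.05 and 0.05. After histamine 3 of the 17 were higher and 1 was lower, or 1 higher and 3 lower with quantile normalization, and after IL6 2 were lower, or 1 higher and 2 lower with loess. The shares past the threshold were 11.8% after IL6, 41.2% after IFNα and 23.5% after histamine, against 21.3%, 22.1% and 40.9% of genes with a symbol.

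Carriers held 3 of the 5 members that reached a fold of 1.5 against untreated cells. Of the 27, none was higher and 3 were lower after IL6, 3 were higher and 3 lower after IFNα, and 6 were higher and 6 lower after histamine. These are 11.1%, 22.2% and 44.4% of the carriers, against 21.3%, 22.1% and 40.9% of genes with a symbol, so the shares after IFNα and histamine are near the background. For IL6 quantile normalization gave 5 lower and median centring 2. SLC25A28 encodes mitoferrin 2, which brings iron into the matrix. It read 10.80, 10.88 and 10.78 in IFNα arrays and 8.67, 8.79 and 8.87 in histamine arrays, against 9.15, 9.14 and 9.12 in untreated arrays. The IFNα arrays stood far above the rest and the histamine arrays lay below every untreated one. The IFNα change was 1.68 (95% interval 1.56 to 1.81, fold 3.21, limma, adjusted p = 1.38e-11) and the histamine change -0.36 (adjusted p = 0.000221). After IL6 it was -0.03 and did not pass.

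SLC25A16, whose yeast counterpart is needed for coenzyme A in the matrix, read 9.06, 9.03 and 9.04 in IFNα arrays and 8.55, 8.60 and 8.65 in histamine arrays, against 8.29, 8.37 and 8.34 in untreated arrays. Both groups lay above every untreated array. The changes were 0.71 (95% interval 0.58 to 0.84, fold 1.64, adjusted p = 6.74e-07) and 0.27 (adjusted p = 0.00322).

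SLC25A34 had the widest fall of any member. It read 6.72, 6.71 and 7.08 in histamine arrays and 7.21, 7.70 and 7.64 in IL6 arrays, against 8.01, 8.12 and 8.04 in untreated arrays. All arrays of both groups lay below the untreated ones. The histamine change was -1.22 (95% interval -1.49 to -0.95, 2.33-fold lower, adjusted p = 4.06e-06), and a dimmer second probe set had a change of -0.15 that did not pass (adjusted p = 0.164). The IL6 change was -0.54 (adjusted p = 0.00874), or -0.85 on IL6 array 1 alone when the 3 arrays with raised hypoxia genes were left out, a value with no spread of its own. After IFNα it was -0.31 (adjusted p = 0.118), or -0.39 (adjusted p = 0.0141) without those arrays.

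Other carriers changed by less. SLC25A17, a carrier of cofactors in the peroxisome, read 10.10, 10.10 and 10.12 in histamine arrays, against 9.63, 9.69 and 9.63 in untreated arrays, and rose by 0.46 (adjusted p = 1.55e-06). SLC25A11, the oxoglutarate and malate carrier, read 8.77, 8.90 and 8.70 in histamine arrays, against 9.24, 9.25 and 9.28 in untreated arrays, and fell by 0.47 (adjusted p = 2.41e-05). A dim second probe set of SLC25A11 had 0.02 after histamine (limma, adjusted p = 0.925). SLC25A29, a carrier of basic amino acids, rose by 0.41 after histamine (adjusted p = 0.00139). In each of these the histamine arrays lay apart from the untreated ones. SLC25A33, which carries pyrimidine nucleotides, fell by 0.31 after IL6 (adjusted p = 0.000578), reading 8.89, 8.82 and 8.82 in IL6 arrays against 9.16, 9.14 and 9.16 in untreated arrays, and its second probe set fell by 0.51 (adjusted p = 0.00395). SLC25A3, the phosphate carrier, fell by 0.23 after IFNα (adjusted p = 0.000104), reading 12.13, 12.12 and 12.14 in IFNα arrays against 12.34, 12.39 and 12.34 in untreated arrays. SLC25A20, which carries acylcarnitines, did not pass after IL6, IFNα or histamine, with changes of -0.12, -0.05 and -0.01.

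Some carriers passed at levels near or below the lower quartile of the arrays, where no fold is given. SLC25A15, the ornithine carrier, read 4.16, 4.24 and 4.25 in IFNα arrays, against 4.68, 4.70 and 4.79 in untreated arrays (adjusted p = 0.00441). SLC25A30 read 4.35, 4.43 and 4.62 in IFNα arrays, against 4.01, 4.14 and 4.07 in untreated arrays (adjusted p = 0.00681). SLC25A21, a carrier of oxodicarboxylates, was lower after histamine (adjusted p = 0.000817), and its call after IL6 (adjusted p = 0.0489) was lost when any of 9 arrays was left out. SLC25A42, also low, passed after histamine (adjusted p = 0.032) but not without histamine array 2 or 3 or any untreated array (adjusted p 0.0588 to 0.125).

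The 3 ADP/ATP carriers, which exchange ATP made in the matrix for ADP, differed from each other and between their own probe sets. SLC25A4 read 11.36 in each histamine array, against 10.94, 10.98 and 10.97 in untreated arrays, and rose by 0.40 (adjusted p = 0.000101). SLC25A6 read 12.32, 12.31 and 12.28 in IFNα arrays and 12.30, 12.41 and 12.35 in histamine arrays, against 12.64, 12.73 and 12.63 in untreated arrays. On this probe set it was lower after IFNα (-0.36, adjusted p = 2.18e-06) and after histamine (-0.31, adjusted p = 6.86e-06). The next SLC25A6 probe set had 0.08 after IFNα, past no threshold, and -0.54 after histamine (adjusted p = 7.81e-07). The dimmest was lower after IFNα (-0.41, adjusted p = 7.62e-05) and higher after IL6 (0.64, adjusted p = 1.97e-06) and histamine (0.72, adjusted p = 2.5e-07). SLC25A5 had a change of 0.06 after histamine on its brightest probe set, which did not pass, while its second read 12.19, 12.23 and 12.20 in histamine arrays against 11.37, 11.43 and 11.41 in untreated arrays, a change of 0.80 (adjusted p = 2.99e-09). The direction for SLC25A6 after histamine, and the call for SLC25A5, therefore depend on the probe set. Among the 13 members past the threshold after histamine that had several probe sets, SLC25A6 was the only one with another set past it in the opposite direction. Only 3 of the 13, SLC25A6 among them, had another set past it in the same direction. For the others no second set passed. Where each probe set lies in its transcript was not analysed here.

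**Figure D3:**
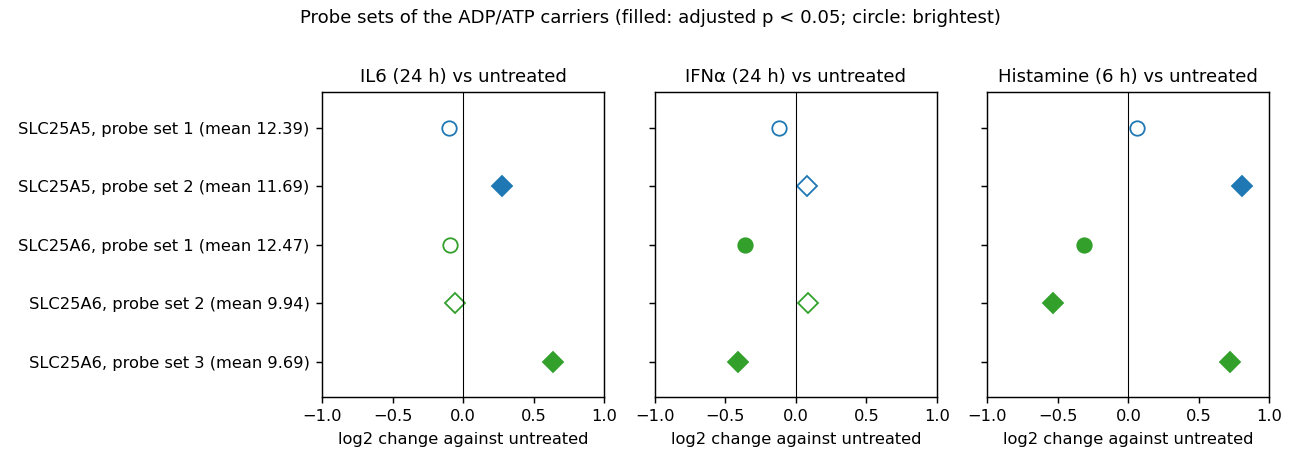
Log2 change against untreated cells (horizontal axis) of the 2 SLC25A5 and 3 SLC25A6 probe sets (vertical axis), with a panel for IL6, IFNα and histamine. Filled points had an adjusted p under 0.05 and a circle marks the brightest set of each gene, a diamond any other. After histamine the SLC25A6 sets had -0.31, -0.54 and 0.72, and the SLC25A5 sets 0.06 and 0.80.

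NDUFA4 was first named as a complex I subunit and is now placed in complex IV. It read 10.66, 10.80 and 10.77 in IFNα arrays and 10.79, 10.81 and 10.90 in histamine arrays, against 10.50, 10.56 and 10.52 in untreated arrays. Both groups lay above every untreated array, by 0.22 (adjusted p = 0.00333) and 0.31 (adjusted p = 9.92e-05). A dim second probe set had 0.12 and 0.03. With the mean of its probe sets NDUFA4 passed in neither comparison (0.17 in each, limma, adjusted p = 0.11 and 0.0719). After IL6 NDUFA4 had a change of 0.02 on its brightest probe set.

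Members were also compared between the cytokines, both given for 24 h. In IL6 against IFNα, 20 members were higher in IL6 cells and 19 lower, 33.6% of the 116, against 28.5% of all probe sets (13.7% higher, 14.8% lower) and 35.1% of genes with a symbol. COX7A1, SLC25A28 and SLC25A16 were lower by a fold of at least 1.5, against 6.11% of all probe sets past that rule. The median was 0.018, against 0.03 over all probe sets, and the split was 30 to 17 with median centring. COX7A1 differed by -2.56 (5.91-fold lower in IL6 cells, adjusted p = 5.47e-12) and COX7A2 by 0.40 (adjusted p = 1.24e-07). SLC25A28 differed by -1.72 (adjusted p = 9.82e-12) and SLC25A16 by -0.78 (adjusted p = 1.55e-07). ATP5IF1 and NDUFB10 were lower in IL6 cells, with differences of -0.57 and -0.50 (adjusted p = 2.11e-08 and 1.55e-07). ATP5F1D, UQCR11, NDUFAF8 and UQCRB were higher in IL6 cells, by 0.50, 0.43, 0.40 and 0.36 (adjusted p = 2.67e-06, 5.68e-07, 0.000136 and 0.000275). In complex III 3 subunits were higher and none lower, and in the ATP synthase 4 were higher and 1 lower. These are 33.3% and 29.4% of the 2 sets, near or below the 35.1% of genes with a symbol. Loess gave 4 and 1 for complex III and 4 and 3 for the ATP synthase. SDHC and SDHD, the membrane anchors of complex II, were lower in IL6 cells, with differences of -0.12 and -0.23 (adjusted p = 0.013 and 0.00625), and for SDHC this did not pass with median centring (-0.09, adjusted p = 0.0676).

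COX7A1 had the largest F value of the members. Over the 12 arrays, the genes whose levels ran closest to it were IFI6 (Pearson's r 0.998), GRAMD1C (0.996), PML (0.996), IFI44L (0.996) and GBP4 (0.995). These coefficients describe arrays in which the IFNα group stands apart from the other 3, and on arrays that share 1 scaling. The IFNα changes of these genes were 3.98, 1.43, 2.21, 6.10 and 5.03.

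Genes of the glycolysis and hypoxia response were raised on 3 arrays, which bears on NDUFA4L2 and SLC25A37. NDUFA4L2, a homolog of NDUFA4 known to be induced by low oxygen, read 5.56, 6.37 and 7.30 in IL6 arrays and 5.58, 5.64 and 6.73 in IFNα arrays, against 5.83, 5.79 and 5.74 in untreated arrays. SLC25A37, mitoferrin 1, read 7.65, 7.97 and 8.13 in IL6 arrays and 7.63, 7.77 and 8.27 in IFNα arrays, against 7.76, 7.77 and 7.73 in untreated arrays. In both genes IL6 arrays 2 and 3 and IFNα array 3 were the highest of the 12. On the same arrays the mean of 28 glycolysis and hypoxia genes lay 0.58, 0.88 and 0.60 above the untreated mean, against 0.08 on IL6 array 1 and -0.04 and -0.02 on IFNα arrays 1 and 2. Histamine arrays had 0.16 to 0.19. Among these genes LDHA, lactate dehydrogenase A, read 11.45, 12.30 and 12.84 in IL6 arrays and 10.78, 10.55 and 12.29 in IFNα arrays, against 10.88, 10.85 and 10.80 in untreated arrays. VEGFA, an angiogenic factor, read 9.41, 11.17 and 11.95 in IL6 arrays and 9.47, 9.49 and 11.76 in IFNα arrays, against 9.48, 9.52 and 9.44 in untreated arrays.

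NDUFA4L2 had an IL6 change of 0.62 (95% interval -0.11 to 1.35, adjusted p = 0.231), which was 1.05 (adjusted p = 0.0197) without IL6 array 1 and -0.23 on IL6 array 1 alone, without the 3 raised arrays. Its second probe set had 0.04. SLC25A37 had 0.16 (-0.13 to 0.46), or -0.10 on IL6 array 1 alone. The median of the 116 members did not follow the hypoxia genes: it lay -0.05, -0.02 and -0.04 from the untreated mean on the IL6 arrays and -0.07, -0.03 and -0.05 on the IFNα arrays. Without the 3 arrays 13 members were higher and 24 lower after IFNα, where 2 arrays remained. For IL6 only array 1 remained, so its counts test a single array with the spread taken from the other groups: 2 higher and 8 lower against untreated cells, and 13 and 15 in IL6 against IFNα. Why these arrays differ was not tested.

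**Figure D4:**
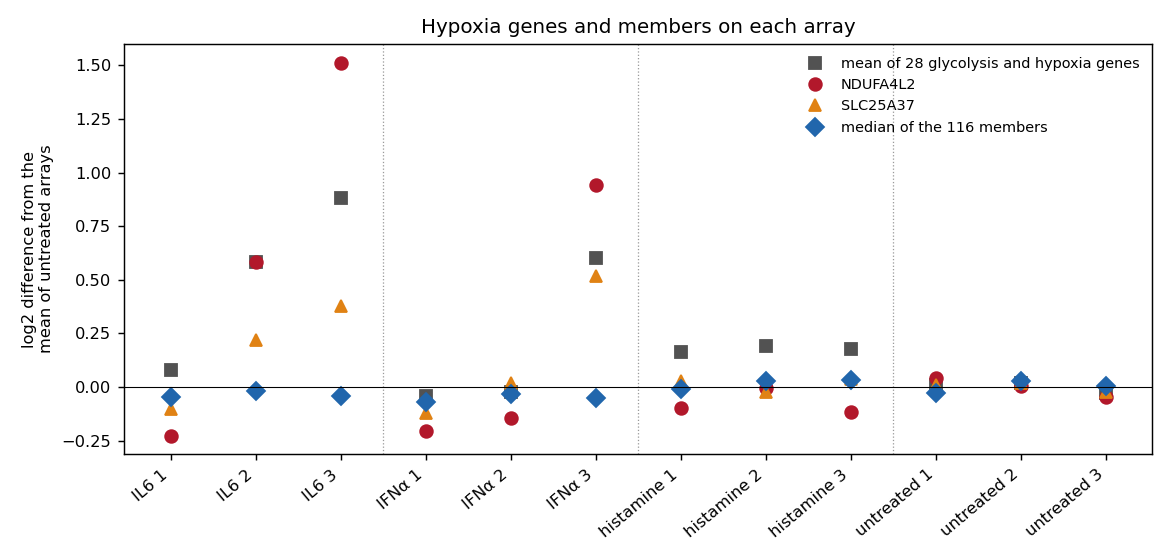
Difference from the untreated mean on the log2 scale (vertical axis) on each array of the 4 groups (horizontal axis), for the mean of 28 glycolysis and hypoxia genes, NDUFA4L2, SLC25A37 and the median of the 116 members. IL6 arrays 2 and 3 and IFNα array 3 stand above the others for the first 3 measures, while the member median stays between -0.07 and 0.03.

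Genes around the respiratory chain were counted from lists, with all genes measured included. Of all probe sets 6.68% were higher and 10.7% lower after IL6, 6.74% and 9.99% after IFNα, and 15.1% and 16.4% after histamine. Each list gene was read from its brightest probe set, so genes with a symbol are the closer background. Of these 21.3% passed in either direction after IL6, 22.1% after IFNα and 40.9% after histamine. Under the 3 scalings the count of each list in each direction moved by at most 4 genes. The protein import machinery carries nuclear-encoded subunits into mitochondria, and after histamine 18 of its 25 measured genes were higher and 1 was lower, or 17 to 19 higher and 1 lower under the scalings. Its median change was 0.24. TOMM6 of the outer membrane translocase rose by 0.87 (adjusted p = 3.12e-08), TIMM8A and TIMM23 of the inner membrane pathways by 0.74 and 0.72 (adjusted p = 9.43e-07 and 6.25e-07), and TIMM17B fell by 0.39 (adjusted p = 0.000392). After IL6 1 import gene was higher and 2 were lower, and after IFNα also 1 and 2. For IFNα loess gave 3 and 1.

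Of 20 genes of the tricarboxylic acid cycle and pyruvate dehydrogenase, 9 were lower and none higher after IFNα, or 5 and 1 with loess. IDH2, the NADP-dependent isocitrate dehydrogenase, fell by 0.57 (adjusted p = 1.98e-05) and OGDH, of the oxoglutarate dehydrogenase complex, by 0.48 (adjusted p = 0.00416). After histamine 9 were higher and 5 lower. IDH3A, a subunit of the NAD-dependent enzyme, rose by 0.66 (adjusted p = 1.05e-07) and PC, pyruvate carboxylase, fell by 0.72 (adjusted p = 3.79e-05). After IL6 1 was higher and 4 were lower, with falls of 0.28 in PDHA1 and 0.26 in PDHX of pyruvate dehydrogenase (adjusted p = 0.00634 and 0.00712).

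Of 14 genes of ubiquinone synthesis and electron entry, 2 were higher and 8 lower after histamine, including COQ8A (-0.59, adjusted p = 0.000111). Median centring gave 2 and 5. After IL6 2 were higher, COQ8A among them (0.47, adjusted p = 0.00194), and after IFNα 2 were higher and 1 was lower. Of 14 channel and uptake genes, 1 was higher and 5 were lower after IFNα, or 1 and 1 with loess, 3 were higher and 3 lower after histamine, and 1 was lower after IL6. After histamine MPC1 and MPC2, which form the pyruvate carrier, rose by 0.84 and 0.40 (adjusted p = 3.68e-08 and 1.09e-05).

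Of 17 fusion, fission and mitophagy genes, 4 were higher and 1 lower after IFNα, 2 and 4 after histamine, and 1, OPA1, was lower after IL6. That call of OPA1 was lost under all 3 scalings (adjusted p 0.0646 to 0.0776) and when any of 8 arrays was left out, while FUNDC1 was higher after IL6 under all 3 scalings (0.15 to 0.18, adjusted p 0.00813 to 0.0248). FUNDC1, a mitophagy receptor, rose by 0.91 after IFNα (adjusted p = 1.47e-09), and MFN2, which fuses outer membranes, by 0.51 (adjusted p = 1.87e-06). Of 11 biogenesis regulators, 1 was lower after IL6, 2 were lower after IFNα, and 1 was higher and 2 lower after histamine. The coactivator PPARGC1A fell by 0.64 after IFNα (adjusted p = 0.00074), and its IL6 change of -0.36 was lost without IL6 array 2 or 3 or untreated array 2 or 3 (-0.37 to -0.28, adjusted p 0.0822 to 0.149).

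Of 19 assembly factors outside the set, 1 was higher and 2 were lower after IL6, 1 and 1 after IFNα, and 5 and 5 after histamine. SCO1, which delivers copper to complex IV, rose by 0.74 after IFNα (adjusted p = 9.84e-08). Of 11 redox defence genes, 2 were higher and 2 lower after IL6, 2 and 5 after IFNα, and 2 and 4 after histamine. The mitochondrial thioredoxin reductase TXNRD2 fell by 0.84 after histamine (adjusted p = 1.28e-05). GPX1, a glutathione peroxidase, fell by 0.63 there and by 0.36 after IFNα (adjusted p = 1.14e-07 and 3.64e-05). Of the 28 glycolysis and hypoxia genes, 11 were higher and 2 lower after IL6, 2 and 1 after IFNα, and 6 and 3 after histamine. The mean of these genes was unevenly raised over the IL6 arrays, by 0.08, 0.58 and 0.88 on arrays 1, 2 and 3.

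**Figure D5:**
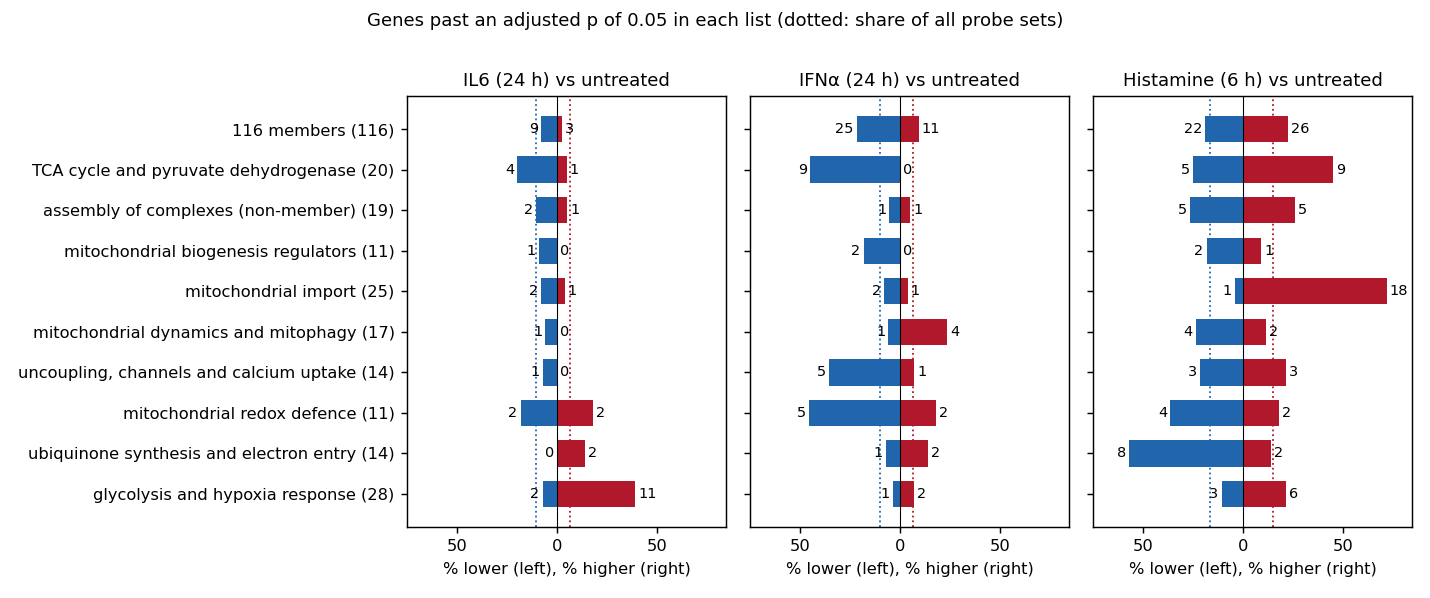
Share of measured genes (horizontal axis, percent) that were lower (left) or higher (right) at an adjusted p under 0.05 in the 116 members and in 9 other mitochondrial or hypoxia lists (vertical axis), with a panel for each treatment against untreated cells. Dotted lines mark the share of all probe sets (15.1% higher and 16.4% lower after histamine). Of genes with a symbol, 21.3% passed in either direction after IL6, 22.1% after IFNα and 40.9% after histamine. After histamine 18 of 25 import genes were higher, and after IFNα 9 of 20 tricarboxylic acid cycle genes were lower.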

How the data were processed

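RNA levels on 12 arrays in 4 groups of 3 were analysed from the authors' deposited table of log2 expression values, for which the submitters' processing notes name RMA (version and settings: not given in the sources used here). Of 24128 probe sets 112 controls were left out, and 13292 carried 1 symbol in the platform annotation, 86 several and 10638 none. No column of values went unused.

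Group means were fitted to all 12 arrays with limma 3.58.1 in R 4.3.3 (eBayes with intensity trend, residual df 8, prior df 6.09), and p-values were adjusted by Benjamini-Hochberg over 24016 probe sets. Tables and figures were made with Python 3.11.15, pandas 2.3.3, scipy 1.17.1 and matplotlib 3.10.9. The fit was tested on simulated data. Depth does not apply to arrays; 3 arrays a group limit the precision.

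Members named are those past adjusted p and a fold of 1.5, up to 6 of the largest rises and falls per comparison, a fixed set of members, and up to 3 genes per other list. Further genes were chosen for mention with their values known. The members, the 9 other lists and the 6 marker lists were chosen with earlier results of these data known. Alternatives were loess, quantile and median scaling, moderation, array weights, dim probe sets left out, the mean of probe sets, other thresholds, fits of 2 groups, a replicate block and each array left out. The 3 arrays with raised hypoxia genes were left out together in another.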

Additional observations from a re-analysis of the deposited data

How the results depend on the processing

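The count of members called after IL6 with a fold of 1.5, 0, was 3 at a fold of 1.2, 1 with array weights, 1 without the 3 arrays with raised hypoxia genes (which leaves IL6 array 1 alone, assumed to vary like the other groups), and 0 to 1 with each array left out. The count past the adjusted p alone after IL6, 12, was 7 at an adjusted p under 0.01, 5 without the trend in eBayes, 35 with array weights, 20 with quantile normalization and 8 to 17 with each array left out. The median IL6 change, -0.035, was -0.007 with loess, 0.002 with median centring and -0.020 when each gene's probe sets were averaged. SLC25A6 after IL6 changed sign with the mean of all probe sets, to 0.16 (limma, adjusted p = 0.00864), the brightest probe set and the dimmest having opposite changes.

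After IFNα the count called, 3, was 17 at a fold of 1.2, and the median was 0.006 with loess. After histamine the count called, 2, was 24 at a fold of 1.2 and 1 at a fold of 2, and the median, 0.017, was -0.017 with quantile normalization and 0.043 with median centring. In IL6 against IFNα the count called, 3, was 18 at a fold of 1.2, and the count past the adjusted p, 39, was 65 with array weights. Its median, 0.018, was -0.005 with loess, 0.052 with median centring, -0.005 without the 3 arrays and -0.007 to 0.033 with each array left out. The causes of these shifts were not tested, apart from the thresholds' own construction.

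The counts past the adjusted p were 26 to 42 after IFNα and 34 to 56 after histamine over all alternatives. The F test count, 78, was 58 to 98, and its alternatives were added after seeing the data. Of 2193 values of named members under the alternatives, 51 lost the call and 31 gained it. The sign differed in 42 of the 2193, 0 of them of a change past the threshold in the fit reported.

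Deviations of same-numbered IL6 and IFNα arrays correlated at 0.528 for array 1, -0.072 for array 2 and 0.597 for array 3. IL6 array 1 and IFNα array 3 had -0.609. Other same-numbered arrays of different groups had -0.009 to 0.26. Numbers were not treated as pairs in the fit reported, and whether same-numbered arrays share a source was not tested. With the replicate block the counts past the adjusted p were 19 after IL6, 40 after IFNα, 55 after histamine, 44 in IL6 against IFNα and 84 for the F test.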
